A study of Mus musculus with 20 samples.

Results

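The nuclear-encoded genes of the mitochondrial respiratory chain were followed in mouse bone marrow. They were taken from the gene count matrix by symbol (Nduf, Uqcr, Cox4, Cox5, Cox6, Cox7, Cox8 or Atp5 at the start of the name, and Sdha, Sdhb, Sdhc and Sdhd), keeping protein-coding genes and leaving out pseudogenes, without use of any measured value. This gave 91 of the 37620 genes of the matrix. By complex, 37 belonged to complex I, 4 to complex II, 8 to complex III, 20 to complex IV and 15 to complex V (ATP synthase), and 4 were complex I assembly factors. The last 3 (Atp5s, Atp5sl and Cox4nb) carry such a name without being subunits.

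The study asked how the splicing modulator sudemycin D6 and the U2AF1(S34F) mutation, which lies in the small subunit of the factor that binds 3' splice sites, act together. Marrow RNA came from 4 groups of 5 mice: U2AF1(WT) with vehicle, U2AF1(WT) with sudemycin D6, U2AF1(S34F) with vehicle and U2AF1(S34F) with sudemycin D6. All mice carried an rtTA-dependent transgene switched on by doxycycline chow (625 ppm) for 7 days, which held U2AF1(WT) or U2AF1(S34F) as the group name says, and all received infusions through a jugular catheter on the last 5 of those days, with drug at 50 mg per kg per day or cyclodextrin vehicle. Each mouse was an irradiated (C57BL/6 × 129S4Sv/Jae)F1 recipient, 6 to 12 weeks old at transplantation, holding pooled marrow of transgenic donors 8 to 12 weeks old for more than 6 weeks, and marrow was harvested 18 h from the final infusion. Because donors were pooled, and nothing says that a genotype had more than 1 pool, donor pool and genotype cannot be told apart.

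The respiratory chain passes electrons from NADH (complex I) and succinate (complex II) through complex III to oxygen at complex IV, and the proton gradient so built drives ATP synthesis by complex V. Complex II is made by nuclear genes only, whereas the other complexes mix nuclear subunits with a few made in the mitochondrion. Several subunits of complex IV come in isoforms that are used in different tissues, such as the heart and muscle forms Cox6a2, Cox7a1 and Cox8b. In the marrow, mature neutrophils are known to rely mostly on glycolysis and erythroid precursors and dividing progenitors to hold more mitochondria.

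Short sequences of 2 kinds bear on the results below. The first are the 3' splice sites of the 3 member exons whose inclusion is described most fully (mm9, last 20 bases of the intron and first 3 of the exon), where capitals mark the AG of the intron and the base before it, at position −3, the position at which U2AF1(S34F) is known to alter the preferred base.
Atp5c1 (chr2:9978431-9978453, minus strand): tttcctaatataataacCAGgga
Ndufa12 (chr10:93666013-93666035, plus strand): ttctccctcctcccactCAGgcc
Ndufv3 (chr17:31664235-31664257, plus strand): ctctttatgccgtttccCAGatg
The second are windows around the motif of NRF1, a transcription factor known to act on respiratory chain genes, in the promoters of 3 of the 6 members that held it (RefSeq, GRCm38.p6, the motif in capitals, positions from the start site).
Atp5k (chr5:108434430-108434459, minus strand, motif at −50 to −41): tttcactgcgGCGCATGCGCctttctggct
Ndufaf4 (chr4:24897960-24897989, plus strand, motif at −113 to −104): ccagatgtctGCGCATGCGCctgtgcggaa
Cox6a1 (chr5:115349101-115349130, minus strand, motif at −162 to −153): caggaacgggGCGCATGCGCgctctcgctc

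Depth did not limit most members. The libraries held 41145892 to 62138138 gene counts, and 78 of the 91 members averaged more than 500 counts. Levels are given as CPM, the count scaled to the library total after trimmed-mean (TMM) normalisation, and between genes as CPM per kb of the median protein-coding transcript. Xist was at 777 to 1632 CPM in U2AF1(WT) mice and under 1 CPM in U2AF1(S34F) mice, while Ddx3y was at 0 and at 38.9 to 80.9 CPM, so the sex of the donor cells moved with genotype and cannot be told apart from it. The mouse U2af1 record had group medians of 36.6 and 43.4 CPM in U2AF1(WT) mice and 49.4 and 51.0 CPM in U2AF1(S34F) mice (vehicle and drug), and does not itself check the transgene. Marrow is a mixture, so more cells of a type and more RNA per cell cannot be told apart in any result below. Neutrophil markers summed to 6.80% and 7.40% of counts in U2AF1(WT) mice (vehicle and drug) and to 10.5% and 10.1% in U2AF1(S34F) mice. Proliferation markers summed to 2072 to 3624 CPM and 2183 to 2924 CPM against 3261 to 4055 CPM and 3392 to 3881 CPM. The part of either shift in the member differences was not tested. Skeletal muscle markers summed to no more than 4.03 CPM in any mouse.

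Members were expressed at very unequal levels within a complex. In complex V the highest level per kb was that of Atp5b, the catalytic beta subunit (mean 291.2 CPM per kb over 20 mice, 206.4 to 384.5), and the lowest that of Atp5d, a central stalk subunit (52.1 CPM per kb). In complex III Uqcrh, the hinge protein, led at 193.7 CPM per kb and Uqcrfs1, the Rieske iron-sulphur protein, was lowest at 44.9. The 4 complex II genes lay close together, from 48.7 CPM per kb for Sdha, the flavoprotein, to 56.9 for Sdhb, the iron-sulphur subunit, and their ranges over mice overlapped. In complex I Ndufa3, an accessory subunit, was highest at 119.5 CPM per kb, just above Ndufb8 at 116, whose range overlapped it. The lowest was a second gene record named Ndufb8 at 0.148 CPM per kb, followed by Ndufb2 at 8.19.

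Complex IV was the one in which tissue isoforms separated. The ubiquitous forms were high in every mouse: Cox4i1 had 248.8 CPM per kb, Cox6b1 166, Cox8a 161, Ndufa4 125, Cox6a1 123 and Cox7a2 64.5. Their tissue-restricted partners were far lower. Cox6b2, the testis form, had 3.64 CPM per kb, from 61 to 195 counts a library. The others were near or at the floor of detection: Cox6a2 had 0.561, Cox7a1 0.445, Cox4i2, the lung form, 0.191 and Ndufa4l2 0.0442. Cox7b2, Cox8b and Cox8c had no count in any of the 20 libraries, which allows at most 3 counts a library. The marrow therefore carried 1 dominant form of each of these subunits in all 4 groups.

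The summed level of the members was higher on average with U2AF1(S34F) than with U2AF1(WT) in every complex, under vehicle and under drug. With vehicle and with drug, all 91 members together took 0.450% and 0.484% of counts in U2AF1(WT) marrow, and 0.565% and 0.613% in U2AF1(S34F) marrow. Complex I summed to 1168 ± 174, 1272 ± 73.0, 1461 ± 46.1 and 1551 ± 60.8 CPM in that order (mean ± SD, n = 5 mice each). Complex V summed to 1749 ± 351, 1880 ± 60.6, 2222 ± 87.2 and 2468 ± 134 CPM. The order of the 4 means was the same in complexes II, III and IV, with complex II spanning the least (293 ± 38.0, 305 ± 12.3, 334 ± 14.9 and 361 ± 22.3 CPM). Complex III gave 443 ± 66.5, 477 ± 27.5, 554 ± 15.9 and 594 ± 20.6 CPM, and complex IV 787 ± 156, 851 ± 96.7, 1018 ± 46.6 and 1091 ± 42.8 CPM. These sums weight abundant genes and were given no test.

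**Figure D1:**
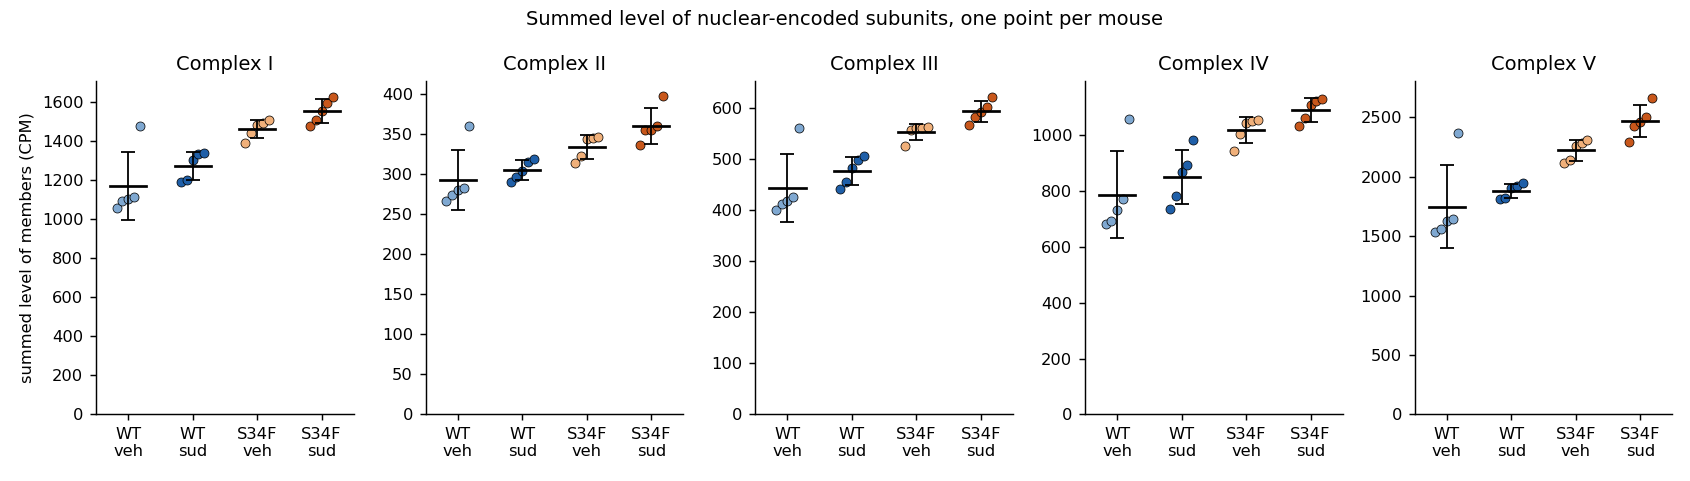
Summed level of the members of each complex in CPM (y axis, from 0), one point per mouse, in the 4 groups (x axis; WT and S34F, veh for vehicle, sud for sudemycin D6); the bar is the mean and the whiskers 1 SD of 5 mice. In each complex the U2AF1(WT) vehicle group has 1 mouse far above its 4 others, 1477 CPM against 1058 to 1112 CPM in complex I and 2371 against 1537 to 1644 CPM in complex V.

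One library stood apart in these sums. Vehicle-treated U2AF1(WT) replicate 2 had 1477 CPM of complex I where the other 4 mice had 1058 to 1112 CPM, and 30 members were high in it alone. Its complex II sum was 359.5 CPM (others 265.9 to 283.2), its complex III sum 561.0 (400.1 to 425.7), its complex IV sum 1058 (682.2 to 770.7) and its complex V sum 2371 (1537 to 1644). It also had the lowest B cell marker sum of its group, 36.1 CPM against 98.4 to 125, and the highest proliferation marker sum, 3624 CPM against 2072 to 2861. The part of either in its member levels was not tested, and the main counts below that rest on the vehicle-treated U2AF1(WT) group are also given without it.

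The genotype comparison moved most members. Under vehicle, 53 of the 84 members tested were higher in U2AF1(S34F) marrow and 0 lower (edgeR's quasi-likelihood test with Benjamini-Hochberg adjustment over all genes, FDR<10%), where 19.7% of all 14817 genes tested were higher and 19.8% lower (39.5% in all). The member log2 fold changes had a median of 0.30, against 0.00 for all genes, and 79 of 84 were above 0. Among drug-treated mice, 51 of 84 members were higher and 1 lower, with 17.2% of all genes higher and 19.6% lower (36.8% in all), and the member median was again 0.30 against −0.03. The vehicle and drug comparisons of genotype share no mice, but donor sex moved with genotype in each. Called higher in both were 43 members, 81.1% of the first list and 84.3% of the second. The share of all genes called higher in both was not counted. Neither list contained a fold change above 1.17 on the log2 scale. Without replicate 2 of the vehicle-treated U2AF1(WT) mice, the count under vehicle was 72 higher and 1 lower, and all 53 were among the 72. Of all genes, 24.2% were then higher and 22.1% lower. Drug-treated U2AF1(WT) replicates 8 and 9 also had few B cell markers, under 40 CPM, and without these and vehicle replicate 2 the count under drug was 65 higher and 1 lower. Of 15097 genes tested in that fit, 3264 were higher and 3226 lower.

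By complex, the calls under vehicle and under drug ran as follows. In complex I, 23 of 36 members tested were higher under vehicle and 22 under drug, and 2 and then 1 of the 4 assembly factors. Complex II had 3 of 4 higher in both comparisons, with Sdha the exception. Complex III had 4 and 3 of 8 higher. In complex IV 10 and 8 of 14 were higher, and Cox6b2 was lower under drug. Complex V had 11 and 13 of 15 higher. Of the 3 genes that are not subunits, 0 were called under vehicle and 1, Atp5s, was higher under drug (0.60, adjusted p = 0.0419). Without vehicle-treated U2AF1(WT) replicate 2, the counts higher under vehicle were 32 of 36 in complex I, 4 of 4 assembly factors, 3 of 4 in complex II, 7 of 8 in complex III, 12 of 14 in complex IV (1 lower) and 14 of 15 in complex V, where 24.2% of all genes were higher.

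**Figure D2:**
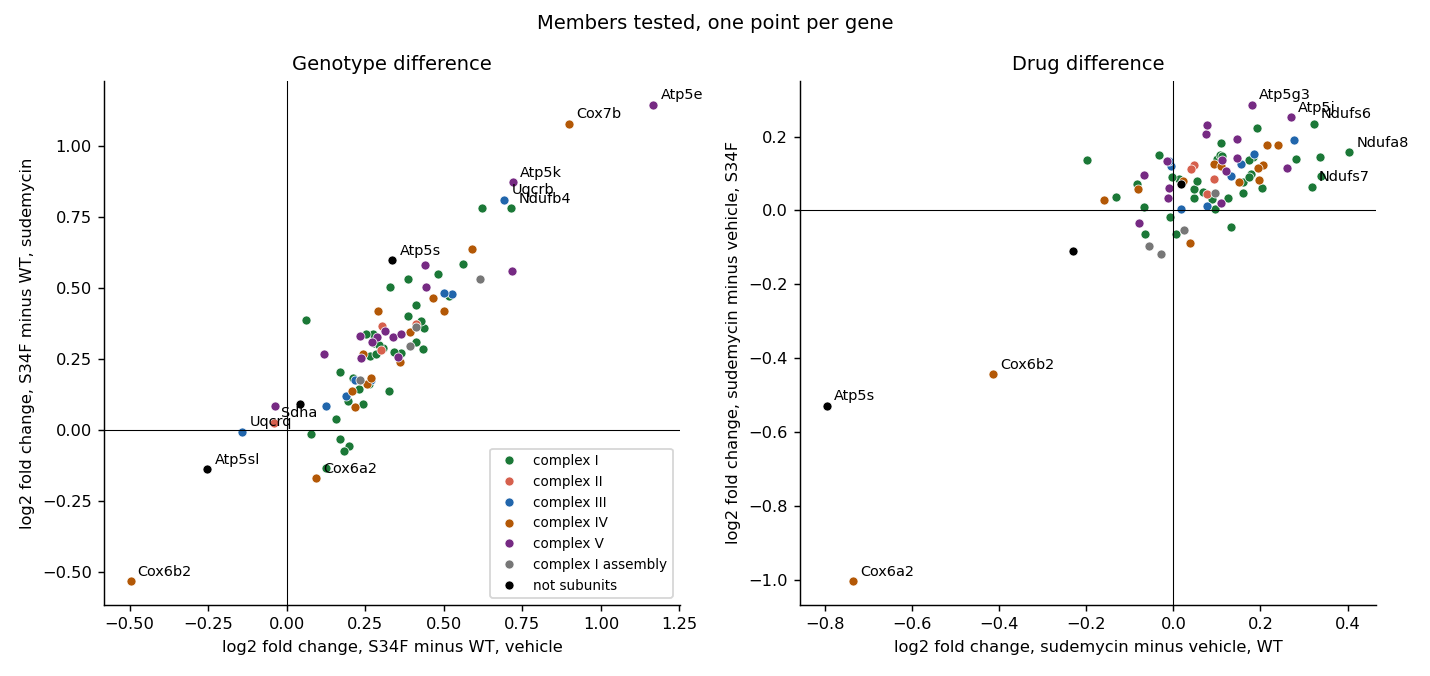
Each point is 1 member tested, coloured by complex: the left panel plots the log2 fold change of U2AF1(S34F) over U2AF1(WT) under vehicle (x) against that under sudemycin D6 (y), the right panel the log2 fold change of sudemycin D6 over vehicle in U2AF1(WT) (x) against U2AF1(S34F) mice (y). On the left the points run from Cox6b2 at −0.50 and −0.53 to Atp5e at 1.17 and 1.14; on the right most points lie within 0.4 of 0 and Cox6a2, Atp5s and Cox6b2 lie below it on both axes.

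Among the F1 subunits of complex V, Atp5e, the epsilon subunit of the central stalk, had the largest genotype difference of any member. It was at 28.8, 38.9, 27.0, 25.2 and 30.6 CPM in vehicle-treated U2AF1(WT) mice and at 36.0, 32.5, 39.8, 33.2 and 22.2 CPM in drug-treated ones. In U2AF1(S34F) mice it was at 62.0, 69.3, 72.6, 70.1 and 68.2 CPM with vehicle and at 70.6, 81.9, 67.0, 71.8 and 80.0 CPM with drug. All 10 U2AF1(S34F) mice were thus above all 10 U2AF1(WT) mice. The log2 fold change was 1.17 ± 0.10 (SE) under vehicle, with an adjusted p of 6.99e-06, and 1.14 ± 0.13 under drug, with an adjusted p of 0.000159 (edgeR's quasi-likelihood test). The much more abundant Atp5b ran at 395 to 666 CPM and 499 to 538 CPM in U2AF1(WT) mice (vehicle and drug) and at 532 to 624 CPM and 608 to 737 CPM in U2AF1(S34F) mice. Its differences were smaller, 0.29 under vehicle (adjusted p = 0.0962) and 0.33 under drug (adjusted p = 0.00751), and the vehicle groups overlapped. Atp5a1, the catalytic partner alpha, differed by 0.25 under drug (adjusted p = 0.0264) and by 0.24 under vehicle (adjusted p = 0.152), which did not pass. Atp5d, the delta subunit of the same stalk as Atp5e, was at −0.04 and 0.08 and passed in neither.

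Of the 10 Fo and stalk members of complex V, 8 were higher under vehicle and 9 under drug, and of the 5 F1 members 3 and 4. Atp5k, the membrane subunit e, was at 32.8, 44.2, 24.3, 16.7 and 30.9 CPM in vehicle-treated U2AF1(WT) mice and at 49.4, 44.9, 53.5, 50.5 and 49.6 CPM in vehicle-treated U2AF1(S34F) mice. The groups did not overlap, although replicate 2 of the former came close to the lowest of the latter. The log2 fold change of Atp5k was 0.72 under vehicle and 0.87 under drug. Atp5j2, the membrane subunit f, differed by 0.72 and 0.56, and Atp5o, which joins the stalk to the F1 head, by 0.44 and 0.58. These 3 passed in both comparisons, whereas Atp5g1, a gene of the c ring, gave 0.12 and 0.27 and passed in neither.

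In complex I, 20 of 29 accessory and 3 of 7 core subunits tested were higher under vehicle, and 19 and 3 under drug, a contrast between the 2 classes that was not tested. Ndufb4, of the membrane arm, was at 14.4, 17.4, 14.0, 9.46 and 16.9 CPM in vehicle-treated U2AF1(WT) mice and at 23.0, 23.7, 24.0, 24.8 and 24.3 CPM in vehicle-treated U2AF1(S34F) mice. The U2AF1(S34F) values were tight and all above the others (log2 fold change 0.71 ± 0.13, adjusted p = 0.00152; under drug 0.78). Ndufc1, also of the membrane arm, was higher by 0.62 and 0.78, and Ndufb6 by 0.56 and 0.58. Of the core subunits, Ndufs1, the largest iron-sulphur subunit, was at 70.5, 86.4, 68.6, 73.2 and 73.2 CPM against 91.6, 88.0, 94.7, 92.8 and 94.5 CPM, which did not overlap (0.29 ± 0.07, adjusted p = 0.00735; under drug 0.30). Ndufv1, the NADH-binding core subunit, gave 0.16 and 0.04 and passed in neither comparison. Among the assembly factors, Ndufaf4 was higher under vehicle by 0.61 ± 0.23 (adjusted p = 0.0557), from values of 4.48 to 12.5 CPM in U2AF1(S34F) mice that overlapped the 4.65 to 6.09 CPM of U2AF1(WT) mice, and gave 0.53 (adjusted p = 0.132) under drug.

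Complex II split between its catalytic flavoprotein and the other subunits. Sdha was at 135, 166, 128, 135 and 126 CPM in vehicle-treated U2AF1(WT) mice and at 138, 119, 142, 132 and 146 CPM in vehicle-treated U2AF1(S34F) mice, fully interleaved (log2 fold change −0.04 ± 0.09, adjusted p = 0.751; under drug 0.02 ± 0.06, adjusted p = 0.817). Sdhd, a membrane anchor, was at 56.2, 70.5, 59.8, 57.8 and 58.3 CPM against 89.2, 82.8, 76.5, 76.9 and 81.6 CPM without overlap. Its difference was 0.41 ± 0.08 under vehicle (adjusted p = 0.00176) and 0.37 under drug. Sdhb was higher by 0.30 and 0.37 and Sdhc, the other anchor, by 0.30 and 0.28, all past the threshold. Whether the Sdha difference differed from those of its partners was not tested.

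In complex III, Uqcrb, a small subunit at the ubiquinone side, was at 38.6, 56.1, 36.2, 28.4 and 41.4 CPM in vehicle-treated U2AF1(WT) mice and at 63.9, 60.3, 67.6, 70.7 and 65.5 CPM in vehicle-treated U2AF1(S34F) mice. The groups did not overlap and the log2 fold change was 0.69 ± 0.13 (adjusted p = 0.00231), and 0.81 under drug. Of the large core proteins, Uqcrc2 was higher by 0.50 and 0.48, whereas Uqcrc1 gave 0.13 and 0.08 and passed in neither. Uqcrfs1 (0.22 and 0.18) and Uqcrq (−0.14 and −0.01) also did not pass. Uqcrh, the most abundant per kb, was higher by 0.19 under vehicle (adjusted p = 0.0717) and gave 0.12 under drug, which did not pass.

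In complex IV, Cox7b, an X-linked small subunit, had the largest genotype difference and the widest spread. In vehicle-treated U2AF1(WT) mice it was at 38.8, 65.1, 28.2, 17.9 and 44.8 CPM, and in drug-treated ones at 44.4, 23.8, 51.8, 35.9 and 18.4 CPM. In U2AF1(S34F) mice it was at 69.5 to 80.3 CPM with vehicle and 70.0 to 86.5 CPM with drug, all above the 10 U2AF1(WT) mice. The log2 fold change was 0.90 ± 0.27 (adjusted p = 0.0323) and 1.08 ± 0.23 (adjusted p = 0.00577). Ndufa4, now counted with complex IV, was higher by 0.59 and 0.64. Cox6b1 was higher by 0.46 in both, Cox7a2 by 0.50 and 0.42, Cox5a by 0.24 and 0.27 and Cox8a by 0.29 and 0.42. Cox4i1, the most abundant, was higher by 0.26 under vehicle (adjusted p = 0.0706) and gave 0.16 under drug (adjusted p = 0.186). Cox6a1 did not pass (0.21 and 0.13). Cox7a2l, a factor that joins complexes III and IV into supercomplexes, was higher by 0.22 under vehicle (adjusted p = 0.099) and gave 0.08 under drug.

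The rare isoforms of complex IV ran the other way or were too low to judge. Cox6b2 was at 2.39, 2.29, 2.17, 1.88 and 1.31 CPM in drug-treated U2AF1(WT) mice and at 1.42, 1.16, 1.68, 1.46 and 1.35 CPM in drug-treated U2AF1(S34F) mice, and its log2 fold change was −0.53 ± 0.20 (adjusted p = 0.0638). Under vehicle it was −0.50 (adjusted p = 0.107). Cox6a2, which averaged 19.6 counts a library, gave 0.09 and −0.17, and Cox4i2, Cox7a1 and Ndufa4l2 did not reach the count filter in the genotype comparisons.

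The other X-linked members are given beside Cox7b because sex moved with genotype. Ndufa1, an accessory subunit, ran under vehicle from 20.4 to 25.0 CPM with U2AF1(WT) and from 27.1 to 32.6 CPM with U2AF1(S34F), without overlap, and was higher by 0.43 and under drug by 0.28. Ndufb11 was higher by 0.41 and 0.31. With autosomal genes alone in the fit, 51 of 81 members were higher under vehicle and 50 of 81 under drug. Of the 14314 and 14189 genes in these fits, 2833 and 2450 were higher and 2843 and 2765 lower.

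**Figure D3:**
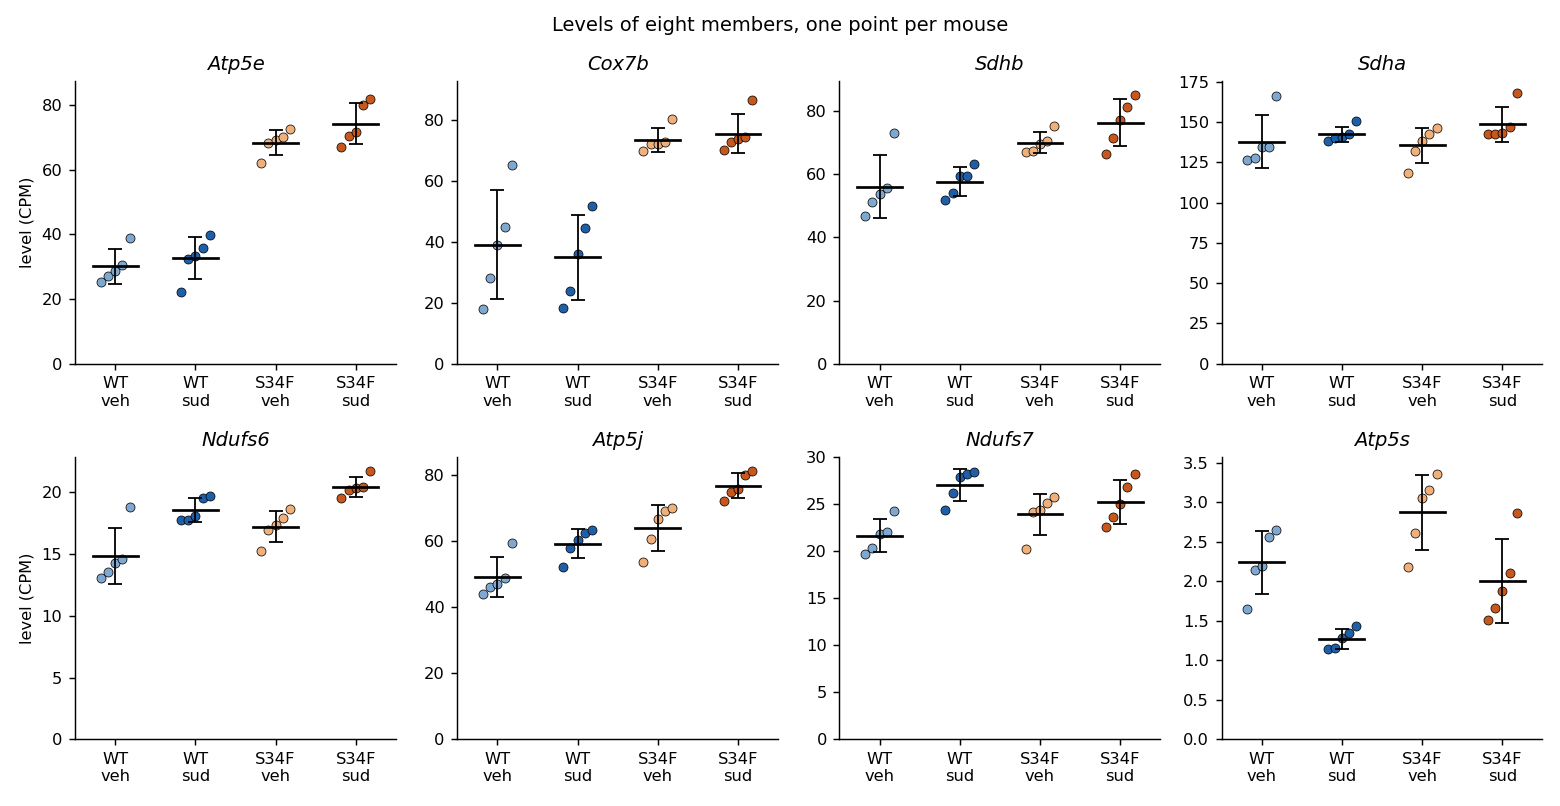
Level in CPM (y axis, from 0) of 8 members in the 4 groups (x axis), one point per mouse, with the mean and 1 SD of 5 mice. Atp5e and Cox7b are higher in all 10 U2AF1(S34F) mice than in all 10 U2AF1(WT) mice, Sdha interleaves, and Ndufs6 and Atp5j have their highest mean in drug-treated U2AF1(S34F) mice while Atp5s is lowest in drug-treated U2AF1(WT) mice.

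The groups of many members did not overlap. Under vehicle this held for 18 of 84 members, all higher in U2AF1(S34F) mice, against 9.34% of all genes in that direction and 10.2% in the other (19.5% in all). Under drug it held for 43 of 84, again all higher, against 11.8% of all genes in that direction and 8.32% in the other (20.1% in all). Replicate 2 of the vehicle-treated U2AF1(WT) mice lies in the first comparison only. Without it the groups of 68 of 84 members did not overlap under vehicle, all higher. Of all genes this held for 17.9% in that direction and 13.9% in the other (31.9% in all). The 43 included all 3 subunits of complex II other than Sdha and 13 genes of complex V.

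The genotype difference of genes in general varied with their summed exon length. Among other protein-coding genes above 16 CPM, the median log2 fold change under vehicle was 0.42 for the 72 genes with up to 600 bp of exon and fell class by class to −0.03 for the 3787 genes over 4000 bp. The members showed 0.43 in the first class (9 genes) and 0.29 in the last (7 genes), with no class under 0.27. Under drug the other genes ran from 0.29 to −0.03 and the members from 0.36 to 0.33. By these medians the members lay near other genes in the shortest class, and above them in the longer classes. The classes sum all annotated exons of a gene, so a gene with short transcripts can lie in a long class. Members and other genes were not compared by transcript length. Under vehicle, 59.7% of the other genes in the first class were called higher, against 77.8% of members. In the following classes it was 42.9%, 42.7%, 36.1%, 28% and 20.9%, against 58.8%, 76.9%, 58.8%, 70% and 57.1% of members. Under drug the first class gave 38.9% against 77.8%, and the last 19.4% against 57.1%. Whether length or RNA recovery plays a part in the member differences was not tested. The summed exons of Uqcrb came to 876 bp, those of Cox7b to 1214 bp and those of Atp5e to 1756 bp. How reads shared with processed copies elsewhere in the genome were counted is not given in the sources used here.

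**Figure D4:**
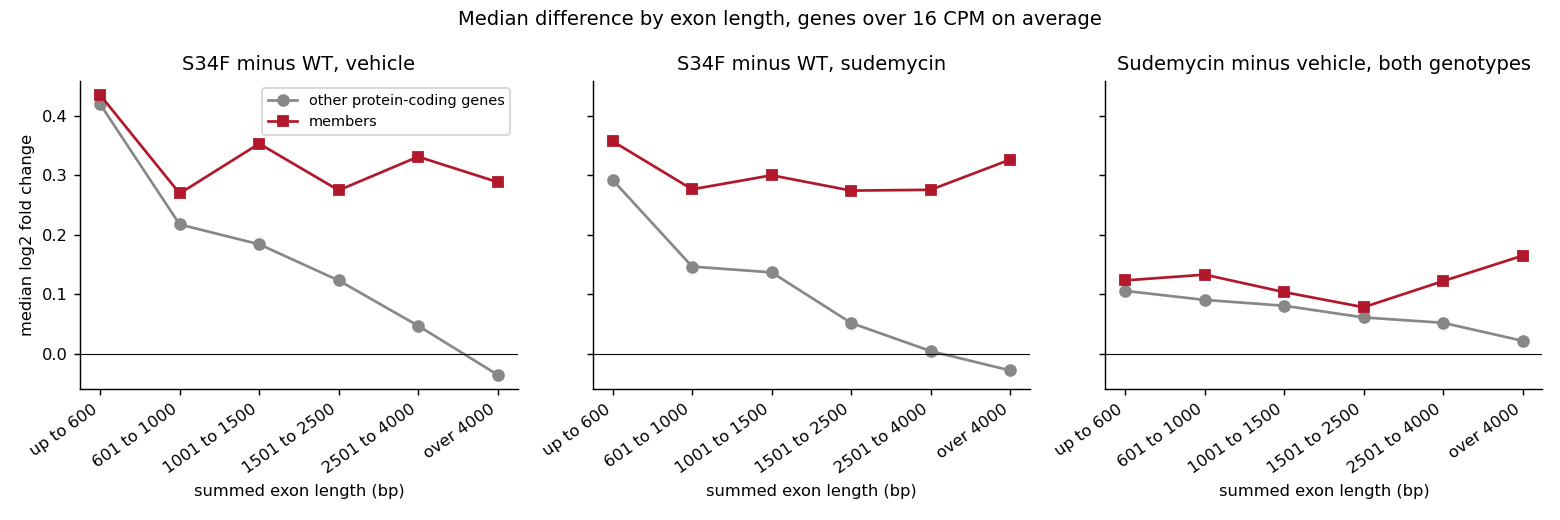
Median log2 fold change (y axis) of genes above 16 CPM by summed exon length in bp (x axis, 6 classes), for the members (squares) and all other protein-coding genes (circles), in the genotype comparison under vehicle (left), under sudemycin D6 (middle) and the drug comparison over both genotypes (right). The circles fall from 0.42 to −0.03 on the left, the squares stay between 0.27 and 0.43; on the right the circles fall from 0.11 to 0.02 and the squares lie between 0.08 and 0.16.

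Sudemycin D6 moved few members in U2AF1(WT) mice. Of 84 tested, 1 rose and 1 fell, where 1.18% of all genes rose and 1.89% fell (3.07% in either direction). Ndufs7, the core subunit of complex I with the last iron-sulphur cluster before ubiquinone, was at 20.3, 22.0, 21.8, 24.2 and 19.7 CPM with vehicle and at 28.2, 27.8, 26.2, 28.4 and 24.3 CPM with drug. All 5 treated mice were above all 5 controls, and it rose by 0.32 ± 0.09 (edgeR, adjusted p = 0.0954). Atp5s, which is not a subunit, was at 1.65, 2.56, 2.20, 2.15 and 2.65 CPM with vehicle and at 1.43, 1.29, 1.14, 1.35 and 1.16 CPM with drug, again without overlap. It fell by 0.80 ± 0.20 (adjusted p = 0.06). Those were the 2 members whose groups did not overlap, against 4.27% of all genes (1.64% higher and 2.63% lower). The median of the members was 0.09 against 0.00, with 61 of 84 above 0. Without vehicle replicate 2, 14 members rose, Ndufs7 among them, and 1 fell, where 1.96% of all genes rose and 2.94% fell. The member median was then 0.18. Leaving out other single mice gave 0 or 1 that rose and 0 or 1 that fell.

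In U2AF1(S34F) mice 6 of 85 members tested rose and 0 fell, where 4.94% of all genes rose and 5.85% fell (10.8% in all). Of the 6, 3 are of complex V. Atp5j, coupling factor 6 of the stalk, was at 60.7, 53.5, 66.6, 70.0 and 69.0 CPM with vehicle and at 74.8, 72.2, 80.0, 75.7 and 81.1 CPM with drug, without overlap, and rose by 0.25 ± 0.07 (edgeR, adjusted p = 0.053). Atp5g3, a gene of the c ring, rose by 0.29 and Atp5d by 0.21. Ndufs6, an accessory subunit of complex I, was at 16.9, 15.2, 17.3, 17.9 and 18.6 CPM with vehicle and at 20.3, 20.1, 19.5, 21.7 and 20.4 CPM with drug. Every treated mouse was above every control and it rose by 0.24 ± 0.06 (adjusted p = 0.0477). Ndufb5 of complex I and Cox7c of complex IV each rose by 0.18. The groups of 7 members did not overlap, all higher with drug, against 7.41% of all genes (3.8% higher and 3.61% lower). The member median was 0.09 against −0.01, and 72 of 85 members were above 0. Fewer rose without single mice: 2 without drug-treated replicate 10 or vehicle-treated replicate 1, and 3 without drug-treated replicate 2 or 12.

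The drug comparisons in the 2 genotypes share no mice, and the sign of the drug difference was the same in both for 66 of 84 members (78.6%), against 64.7% of all genes tested in both. It was above 0 in both for 57 members (67.9%), against 31.8% of all genes. With the drug estimated over both genotypes together, 17 of 86 members rose and 3 fell, where 7.78% of all genes rose and 7.22% fell (15% in all). The 10 largest rises were those of Ndufa8 (0.29), Ndufs6 (0.29, adjusted p = 0.00258), Atp5j (0.27, adjusted p = 0.0031), Ndufa2 (0.25), Uqcr11 (0.25), Atp5g3 (0.24), Ndufb7 (0.23), Ndufa1 (0.22), Cox6a1 (0.22) and Cox7c (0.21). The risers held 10 genes of complex I, 2 of complex III, 2 of complex IV and 3 of complex V. The 3 that fell were the rare isoforms Cox6a2 (by 0.86, SE 0.30) and Cox6b2 (by 0.42, SE 0.14) and Atp5s (by 0.65 ± 0.13, adjusted p = 0.00241). With all mice in the fit, no gene of complex II passed in any drug comparison. Without vehicle-treated U2AF1(WT) replicate 2, 39 members rose and 2 fell, where 10.8% of all genes rose and 8.78% fell. The 39 included 3 of the 4 genes of complex II. Without replicate 1, 3 or 5 of the vehicle-treated U2AF1(WT) mice, 11 members rose. A single member fell without drug-treated U2AF1(WT) replicate 12 or drug-treated U2AF1(S34F) replicate 6 or 12.

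The interaction of genotype and drug passed for 0 of 86 members with edgeR, where 2 of 15392 genes (0.013%) did, and with DESeq2 for 0 of 88 members. At an unadjusted p under 0.05 there was 1 member, lower, against 603 genes higher and 541 lower. A difference in drug response between genotypes was therefore not detectable in any single member at this depth and number of mice, which does not show that the responses were alike. The member median of the interaction was −0.03, and −0.11 without vehicle-treated U2AF1(WT) replicate 2.

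Set against vehicle-treated U2AF1(WT) mice, the marrow with both mutation and drug had 72 of 84 members higher and 3 lower, where 25.1% of all genes were higher and 25.1% lower (50.2% in all). This comparison shares its controls with the ones above. Atp5e (1.29), Cox7b (0.94), Atp5j2 (0.85), Uqcrb (0.83), Atp5k (0.83), Ndufb6 (0.80), Ndufb4 (0.74), Ndufa4 (0.68), Ndufab1, the mitochondrial acyl carrier protein (0.68), and Ndufb5 (0.68) had the largest log2 fold changes. The 3 lower genes were Cox6b2 (−0.93), Cox6a2 (−0.89) and Atp5sl (−0.35). Complex V had 14 of 15 members higher and complex II 3 of 4. The groups of 32 members did not overlap, 31 of them higher, against 23.7% of all genes (11.5% higher and 12.2% lower). Without vehicle-treated U2AF1(WT) replicate 2, 78 members were higher and 2 lower, where 28.4% of all genes were higher and 27.8% lower. The groups of 76 members then did not overlap, against 38.9% of all genes.

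The rest of the respiratory chain and its supply pathways were followed as lists, whose counts stand against the 19.7% of all genes higher and 19.8% lower by genotype under vehicle and the 17.2% and 19.6% under drug. Of 12 mitochondrially encoded genes tested, 3 were higher and 2 lower in U2AF1(S34F) marrow under vehicle, among them mt-Atp8 (1.47) and mt-Nd3 (1.14), small subunits of complexes V and I, and mt-Nd5 (−0.65). Under drug, 10 were higher and 0 lower with a median of 0.68, led by mt-Atp8 (1.65), mt-Nd3 (1.46) and mt-Atp6 (1.40). Their summed level ranged from 5764 to 13645 CPM in vehicle-treated U2AF1(WT) mice, so that group spread widely, and from 12450 to 15748 CPM in drug-treated U2AF1(S34F) mice. Of 36 cytochrome c and assembly genes outside the naming rule, 8 were higher, a share near that of all genes, and 0 lower under vehicle, and 12 and 1 under drug, with Tmem126a (0.75), a complex I assembly factor, and Cycs (0.70), cytochrome c itself, among the 12. Of 13 tricarboxylic acid cycle genes, 6 were higher and 1 lower under vehicle (Suclg1 0.38, Ogdh −0.30) and 8 and 0 under drug (Fh1, fumarase, 0.57). Without vehicle-treated U2AF1(WT) replicate 2, the vehicle counts were 4 higher and 2 lower, 13 and 0, and 8 and 1 in these 3 lists.

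Glycolysis genes and regulators were called in both directions by genotype. Of 16 glycolysis genes, 2 were higher and 1 lower under vehicle, the last being the glucose transporter gene Slc2a1 (−0.76), and 1 and 1 under drug. Without vehicle-treated U2AF1(WT) replicate 2 the vehicle counts were 5 and 2. Of 12 regulators of mitochondrial genes tested, 3 were higher and 3 lower under vehicle: the coactivator genes Pprc1 (−0.89) and Ppargc1b (−0.75) and Myc (−0.55) were lower, and Tfam, which packages and transcribes mitochondrial DNA, was higher (0.34). Without that replicate 3 of 13 were higher and 4 lower. Under drug 3 were higher and 1 lower, with Tfb1m (0.60), Esrra (−0.45) and Gabpa (0.21). With the drug estimated over both genotypes, 0 of 12 mitochondrially encoded genes, 3 of 36 cytochrome c and assembly genes (with Cyc1, the complex III subunit cytochrome c1, at 0.23), 2 of 13 tricarboxylic acid cycle genes (Dld 0.21), 4 of 16 glycolysis genes (Gapdh 0.36) and 1 of 13 regulators (Gabpa 0.14) rose, and 1 gene of these lists, Nubpl, a complex I assembly factor, fell (−0.26). Among all genes 7.78% rose and 7.22% fell, and the share of cytochrome c and assembly genes that rose was near the former. The 0 for mitochondrially encoded genes averaged 2 genotypes whose medians differed in sign. In U2AF1(WT) mice 0 of 12 had a drug difference above 0 (median −0.26, 0 called), and in U2AF1(S34F) mice 9 of 12 did (median 0.19, 3 called). Their interaction was above 0 in 12 of 12 (median 0.32), with 0 past FDR<10% and 4 at an unadjusted p under 0.05.

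The motif windows shown above come from the promoters of 74 members with an entry in the RefSeq table (250 bases before to 50 after the start, either strand). Members on chromosome 18, such as Atp5a1 and Ndufa2, were left out, and no such exclusion was made among the 27025 genes. The NRF1 motif, whose letters are the capitals above, was present in 6 of them (8.11%), and in 1.07% of 27025 genes. The ETS motif CCGGAAG, recognised by factors such as Gabpa, was present in 17 (23%, against 9.93%) and the YY1 motif AAGATGGC in 11 (14.9%, against 3.19%). The CRE motif TGACGTCA was in 4 (5.41%, against 2.03%), and TATAAA was in 7 (9.46%, against 15.7%). Of the 74, 43 held none of the first 3 motifs. Of the 6 members with the NRF1 motif, Atp5k, Ndufaf4, Ndufa11 and Atp5g2 were higher by genotype under vehicle, and Cox6a1 and Uqcrc1 were not called by genotype but rose with drug over both genotypes. Under drug Atp5k and Atp5g2 were higher by genotype and the other 4 did not pass. No link between a motif and a difference was tested.

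Over all mice, junction reads of the members fell on annotated junctions in 99.5% of cases, and 236 of 262 cassette exon events tested (90.1%) had an inclusion fraction Ψ, pooled over mice, of at least 95%. Retained introns were not measured. With FDR<10% and |ΔΨ|>1%, the drug changed 1 of 198 cassette exon events of members in U2AF1(WT) mice (0.844% of all events tested) and 2 of 218 in U2AF1(S34F) mice (1.26%). Genotype changed 5 of 210 under vehicle (3.34%) and 7 of 216 under drug (2.98%). These shares were near or below the background, and with limma on Ψ the counts were 0, 2, 0 and 0.

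The 37-base exon of Atp5c1, the gamma subunit that turns inside the F1 head, had the lowest adjusted p of any drug difference among the member events (chr2:9978397-9978433, mm9, minus strand, with C at position −3). In U2AF1(S34F) mice its Ψ was 0.958, 0.948, 0.961, 0.955 and 0.970 with vehicle and 0.982, 0.979, 0.985, 0.984 and 0.989 with drug, from 3896 to 4628 reads a mouse. The groups did not overlap, and ΔΨ was 0.025 (edgeR, adjusted p = 2.78e-07; limma, 0.0907). In U2AF1(WT) mice it was 0.942, 0.966, 0.910, 0.923 and 0.908 with vehicle and 0.971, 0.950, 0.960, 0.993 and 0.970 with drug, which overlapped through vehicle replicate 2 (adjusted p = 0.219). Under vehicle it was higher in U2AF1(S34F) mice (0.959 against 0.930, adjusted p = 0.0192) and under drug the genotypes gave 0.984 and 0.969 (adjusted p = 0.102). A length of 37 bases is not a multiple of the codon, so its skipping shifts the reading frame wherever it lies inside the coding sequence.

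The second drug difference in U2AF1(S34F) mice was the 88-base exon of Ndufa12, an accessory subunit of complex I (chr10:93666033-93666120, plus strand, C at −3). Its Ψ was 1, 0.992, 1, 0.996 and 1 with vehicle and 0.984, 0.976, 0.972, 0.979 and 0.982 with drug, without overlap (adjusted p = 0.00386; limma, 0.0717). This rests on 8 skipping reads over the vehicle group and 70 over the drug group. In U2AF1(WT) mice there were 2 and 19 such reads, in 1 of 5 and 3 of 5 mice, and the means were 0.999 and 0.990 (adjusted p = 0.492). The direction was opposite to that of Atp5c1.

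The 1092-base exon of Ndufv3, a complex I subunit whose long form carries this exon, was the least used of the 3 exons shown (chr17:31664255-31665346, plus strand, C at −3). Its mean Ψ was 0.106, 0.140, 0.0994 and 0.0960 in the 4 groups in the order used above. Among drug-treated mice it was at 0.130, 0.162, 0.122, 0.115 and 0.170 with U2AF1(WT) and at 0.101, 0.0856, 0.104, 0.108 and 0.0814 with U2AF1(S34F), without overlap (adjusted p = 3.02e-05; limma, 0.376). Under vehicle the genotypes interleaved (adjusted p = 0.734).

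**Figure D5:**
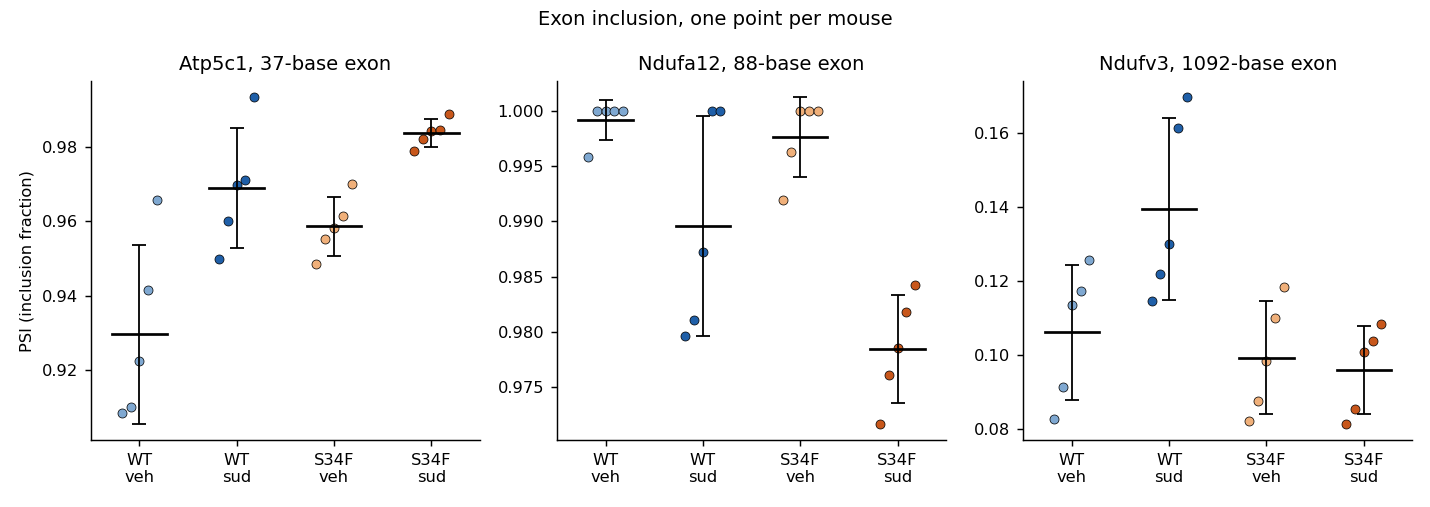
Inclusion fraction Ψ (y axes, which do not start at 0) of 3 exons in the 4 groups (x axis), one point per mouse, with the mean and 1 SD of 5 mice. Atp5c1 is higher and Ndufa12 lower in drug-treated than in vehicle-treated U2AF1(S34F) mice, and Ndufv3 is highest in drug-treated U2AF1(WT) mice, at 0.140 on average.

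Other events were called in further subunit genes. Under vehicle, U2AF1(S34F) mice had a lower Ψ of the 116-base exon of Ndufa6 (0.936 against 0.968, adjusted p = 2.55e-04) and a higher Ψ of the 94-base exon of Ndufs3 (0.0256 against 0.00667), the 164-base exon of Sdhc (0.999 against 0.984) and the 130-base exon of Uqcrc1 (0.998 against 0.987). The Uqcrc1 exon was also the single drug call in U2AF1(WT) mice (0.987 with vehicle, 0.999 with drug, adjusted p = 0.0424). Under drug, genotype changed Ndufs3 again (0.0287 against 0.00994), the 55-base exon of Atp5j (0.0658 against 0.0964) and the 74-base exon of Ndufs4 (0.956 against 0.976). The 129-base exon of Cox7a2l had 0 skipping reads in all 10 U2AF1(S34F) mice (from 1750 to 2621 reads a mouse), while the vehicle and drug groups of U2AF1(WT) mice had 54 and 59. In the drug group they came from all 5 mice (ΔΨ 0.011, adjusted p = 0.000169) and in the vehicle group from 2 of 5. A further call, in a 61-base exon of Ndufa12, had a Ψ of 0 against 0.386 by genotype under drug and rested on 0 to 17 reads a mouse. Over all 12 events called in any comparison, the base at −3 was C in 7, T in 4 and A in 1.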

How the data were processed

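Total RNA of bulk bone marrow from 20 mice was sequenced after ribosomal RNA depletion (stranded, paired reads of 126 bases). The authors deposited whole-number read counts per gene, unnormalised, and counts of reads across each splice junction per mouse, on mm9. The submitters' processing notes name TopHat2 2.0.8 and SAMtools. The gene counter, its strand setting and its handling of multi-mapping reads are not given in the sources used here. Libraries held 41145892 to 62138138 gene counts (median 51836276).

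Here, genes passing edgeR's expression filter were tested within each pair of groups by edgeR's quasi-likelihood test after TMM scaling (edgeR 4.0.16, limma 3.58.1, R 4.3.3), with Benjamini-Hochberg adjustment over all genes and FDR<10%, and with all mice for the drug over both genotypes and the interaction. P-values measure the spread between these mice. Cassette exons were built from pairs of inclusion junctions and 1 skipping junction with a mean of at least 10 reads a mouse, and tested with edgeR on inclusion against skipping reads, and with limma on Ψ. Every adjusted p in the text comes from one of these models, edgeR where none is named. Tables were joined with Python 3.11.15. The edgeR gene fit was tried on simulated data for the drug in U2AF1(WT) mice and over both genotypes. The edgeR exon fit was tried so for the drug in U2AF1(WT) mice alone. There it made more false calls than its nominal share, so limma values stand beside its main calls. A mean ± SE is a log2 fold change and its standard error.

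Named were the 10 members called in each direction with the largest log2 fold change per comparison, complex II, a fixed set of core subunits and isoform sets, X-linked members in genotype comparisons, the highest and lowest member per kb of each complex, called exon events and up to 3 called genes of each list. Members outside that rule were chosen after their values were seen. The lists (mitochondrially encoded genes, cytochrome c and assembly genes, tricarboxylic acid cycle, glycolysis, regulators and cell type markers), the members and the tests were chosen with earlier results of these data known. Alternatives were DESeq2 1.42.0, its size factors, other filters, thresholds and models, a block for replicate number and fits without each mouse in turn. The values of some called genes and events are not reported here.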

Additional observations from a re-analysis of the deposited data

Results flagged for a closer look

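Vehicle-treated U2AF1(WT) replicate 2 lay far above its 4 group mates in the summed level of every complex: 1477 CPM for complex I, 359.5 for complex II, 561.0 for complex III, 1058 for complex IV and 2371 for complex V. Vehicle-treated U2AF1(S34F) replicate 3 stood apart in complex III, at 525.7 CPM where the others had 557.3 to 562.8, and was also the lowest of its group, without standing apart, in complexes I, II and IV. These were 6 of 20 combinations of complex and group examined, where chance marks about 1 in 20 if they are independent. They are not independent, since each mouse enters every complex. Vehicle-treated U2AF1(WT) replicate 2 gave every flag except that of vehicle-treated U2AF1(S34F) replicate 3. Among the Ψ values, single mice stood apart in Cox7a2l (0.980 in drug-treated U2AF1(WT) replicate 9), Ndufa12 (0.996 in vehicle-treated U2AF1(WT) replicate 2), Ndufa6 (0.929 in drug-treated U2AF1(S34F) replicate 2), Sdhc (0.996 in vehicle-treated U2AF1(S34F) replicate 7) and Uqcrc1 (0.994 in drug-treated U2AF1(WT) replicate 10). The Ndufa12 and Sdhc flags rest on 2 skipping reads over each group, and the Uqcrc1 flag on 9, with a group median Ψ of 1. Where the other mice lie at 1, any skipping read sets a mouse apart, so such flags carry little weight. What set these mice apart was not tested.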

How the results depend on the processing

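Counts of members higher by genotype, or higher with mutation and drug together, stayed within 1.5 times under each alternative run, and the drug calls did not. In U2AF1(WT) mice the drug raised 4 members with DESeq2, 0 at FDR<5%, 0 without a count filter and 7 in 1 model of all mice, and lowered 0 at FDR<5% and 0 without a filter. In U2AF1(S34F) mice it raised 13 with DESeq2, 1 at FDR<5%, 3 without a filter and 1 in 1 model, and lowered 1 with DESeq2. Of all genes, 338 of 22135 rose with DESeq2 in U2AF1(WT) mice and 1095 of 22478 in U2AF1(S34F) mice. Without a filter these were 161 of 22170 and 585 of 22495, and in 1 model 549 and 396 of 15392. All genes were not counted at FDR<5%. Over both genotypes the drug raised 11 members and lowered 1 at FDR<5%. By genotype under vehicle, 1 member was lower with DESeq2, 1 with a mean of at least 50 counts and 2 in 1 model; under drug 0 were lower at FDR<5% and 0 without a filter. Without the 3 U2AF1(WT) libraries with few B cell markers, an alternative chosen after seeing the data, the drug raised 17 members in U2AF1(WT) mice and 32 over both genotypes, and 1 was lower by genotype under vehicle. In these drug fits 675 of 15063 and 1710 of 15723 genes rose.

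Leaving out each mouse gave 0 to 14 members raised and 0 to 1 lowered by drug in U2AF1(WT) mice, 2 to 7 and 0 to 2 in U2AF1(S34F) mice, and 11 to 39 and 1 to 3 over both genotypes. By genotype it gave 41 to 72 higher and 0 to 1 lower under vehicle, 45 to 58 and 0 to 1 under drug, and 67 to 78 and 2 to 3 with both. The 14, 39 and 72 were without vehicle-treated U2AF1(WT) replicate 2. Of the 14794 to 15580 genes in these fits, 62 to 292, 408 to 857 and 913 to 1670 rose in the 3 drug comparisons. By genotype 2334 to 3625 were higher under vehicle and 2059 to 2852 under drug, and 3134 to 4233 with both.

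Exon events called, in the order drug in U2AF1(WT), drug in U2AF1(S34F), genotype under vehicle and genotype under drug, were 0, 1, 1 and 3 with annotated junction pairings alone and 3 in the first with a minor isoform of at least 1 read (both chosen after seeing the data), 0, 0, 0 and 1 at |ΔΨ|>5%, and 0, 2, 0 and 0 with limma. Leaving out each mouse gave 1 to 4, 2 to 3, 4 to 6 and 5 to 9.

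Replicate numbers shared by genotypes did not pair the mice: same-number correlations ran from −0.15 to 0.16 under vehicle (3 numbers) and from −0.22 to 0.44 under drug (4), and 1 mouse of each correlated best with its own number. With a replicate block, 0 members were lower by genotype under drug, 0 exon events were called in either genotype comparison, and Sdha under vehicle was 0.0113.

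Signs were counted for the members and comparisons named by the rule, leaving out the interaction and members not called in the single-genotype drug comparisons. They turned for 6 members. Leaving out each mouse, Cox6a2 ran from −0.16 to 0.29 by genotype under vehicle and −0.51 to 0.11 under drug, Sdha from −0.0700 to 0.0307 and −0.0159 to 0.0552, and Ndufv1 under drug from −0.0165 to 0.0839. For the drug over both genotypes Cox7a1 ran from −0.27 to 0.16, Cox7a2l from −0.0858 to 0.0137 and Cox8a from −0.0385 to 0.0609. Cox8a was −9.74e-05 with autosomal genes alone, −0.00918 with a mean of at least 50 counts and −0.00539 without a filter, and Sdha under vehicle was 0.0307 without the libraries with few B cell markers. Of the other combinations of member, comparison and alternative counted here, 2432 kept direction and side of the threshold, 163 lost and 70 gained a call. Signs also turned in the interaction, which was not counted. Sdha was at 0.06 in it with all mice, and without vehicle-treated U2AF1(WT) replicate 2, 0 of 4 complex II members were above 0. Rare isoforms such as Cox6a2 were limited by depth.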

Other observations

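Cell type markers are given beside the 39.5% of all genes called by genotype in either direction under vehicle and the 36.8% under drug. Under vehicle, 5 of 10 neutrophil markers and 2 of 5 proliferation markers were higher in U2AF1(S34F) marrow and 0 lower, and under drug 3 and 4. B cell markers gave 0 calls of 7 under vehicle, and 0 higher and 4 lower under drug. Erythroid markers gave 0 of 9 under vehicle, and 0 higher and 4 lower under drug. Of 8 monocyte and macrophage markers 1 was higher and 3 lower under vehicle, and 3 higher and 1 lower under drug. Of 5 megakaryocyte markers 1 and then 2 were lower. Of 6 stem and progenitor markers 1 was higher by genotype under vehicle and 0 under drug. Sudemycin D6 lowered 2 of the 6 in U2AF1(WT) and 5 in U2AF1(S34F) mice, where 1.89% and 5.85% of all genes fell. Of 6 T and NK cell markers 2 were higher and 1 lower under vehicle and 2 lower under drug, of 4 eosinophil, basophil and mast cell markers 1 and 2 were lower, of 6 stromal markers 1 was higher and 2 lower and then 1 lower, and of skeletal muscle markers 1 was lower in each. Without vehicle-treated U2AF1(WT) replicate 2, 5 of 5 proliferation markers were higher under vehicle, 2 of 7 B cell, 2 of 5 megakaryocyte and 3 of 4 eosinophil, basophil and mast cell markers were lower, and 2 of 8 monocyte and macrophage markers were higher and 3 lower. The other sets gave the counts above.

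In U2AF1(S34F) mice, sudemycin D6 raised 3 of 12 mitochondrially encoded genes (mt-Nd5 0.64, mt-Nd2 0.61 and mt-Cytb 0.35), 2 of 36 cytochrome c and assembly genes (Cyc1 0.28, Acad9 0.21), 3 of 16 glycolysis genes (Gapdh 0.33, Slc2a1 0.31, Pfkp 0.20), 3 of 13 tricarboxylic acid cycle genes (with Idh3a at 0.33 and Dld at 0.23) and 0 of 12 regulators. Among all genes 4.94% rose in U2AF1(S34F) mice, and the share of the cytochrome c and assembly genes was near that. In U2AF1(WT) mice 0 genes of these 5 lists passed, and the interaction passed for 0 of them (edgeR).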
